A study of Mus musculus with 2 samples.

Results

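Sterol and fatty acid synthesis genes were compared between a bone-marrow-derived macrophage culture given CANDI470 and a culture given PBS. The 33 listed genes encode enzymes of cholesterol and fatty acid synthesis and the proteins that control them, and they were chosen by name. Of these, 32 reached at least 1 CPM (counts scaled to a common library size, here the library total) in a library, out of 12827 such genes in the series. Fdps, the farnesyl diphosphate synthase, was below that minimum in both libraries.

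The macrophages had the genotype C57BL/6J. CANDI470, for which the labels give a code name and no composition, was used at 1 mg/mL from day 7 of differentiation. RNA was taken after 12 h, and its polyadenylated part was sequenced. The control label gives PBS as the treatment. Each group was 1 library, with 41646905 counts on genes in CANDI470 and 28442450 in the PBS control, so no difference below has a replicate check, and none has a p-value. Cultures given empty CANDI were not analysed here, so effects of CANDI470 and of empty CANDI cannot be told apart. The libraries were counted with different gene annotations, so treatment and library handling cannot be told apart either. The number of animals behind each culture was not given in the sources used here. In bulk RNA, fewer cells of a type and less RNA per cell cannot be told apart.

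Cells make cholesterol and fatty acids from acetyl-CoA. The mevalonate steps build isoprenoid units, which are joined into squalene and then closed and trimmed into cholesterol, while carboxylation and chain extension of acetyl-CoA give saturated fatty acids that desaturases and elongases modify. SREBP transcription factors drive many of these genes. When membrane sterol is low, the escort protein SCAP carries SREBP from the endoplasmic reticulum to the Golgi, where it is cut and released, and INSIG proteins hold SCAP back when sterol is plentiful. INSIG1 is itself a product of SREBP activity. In macrophages, inflammatory and interferon signalling are known to change sterol and fatty acid synthesis.

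Taken as a list, the members were split evenly, and the split lay close to that of all genes. Each difference is log2(CPM + 1) of the treated library minus that of the control, scaled with TMM, a method that sets library sizes from the bulk of genes. Of the 32 members, 7 were at least 2-fold higher in CANDI470 (21.9%), against 25.1% of all genes, and 7 were at least 2-fold lower (21.9%), against 23.5% of all genes. The 2-fold limit is a rule of size and not a test. The median difference was -0.13 over the members and -0.06 over all genes. With library totals as the scale, which moved the median of all genes to -0.69, 5 members were higher and 11 lower, against 16.2% and 40.2% of all genes. The 14 members past 2-fold kept their direction under all 13 alternatives in processing wherever these gave a value. Changing the added 1 CPM, or keeping only genes with equal models in both libraries, could not turn a direction. By role, 3 of the 5 measured mevalonate enzymes were higher, 0 of the 11 enzymes from squalene to cholesterol were, and the regulators held the member with the largest positive difference.

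**Figure D1:**
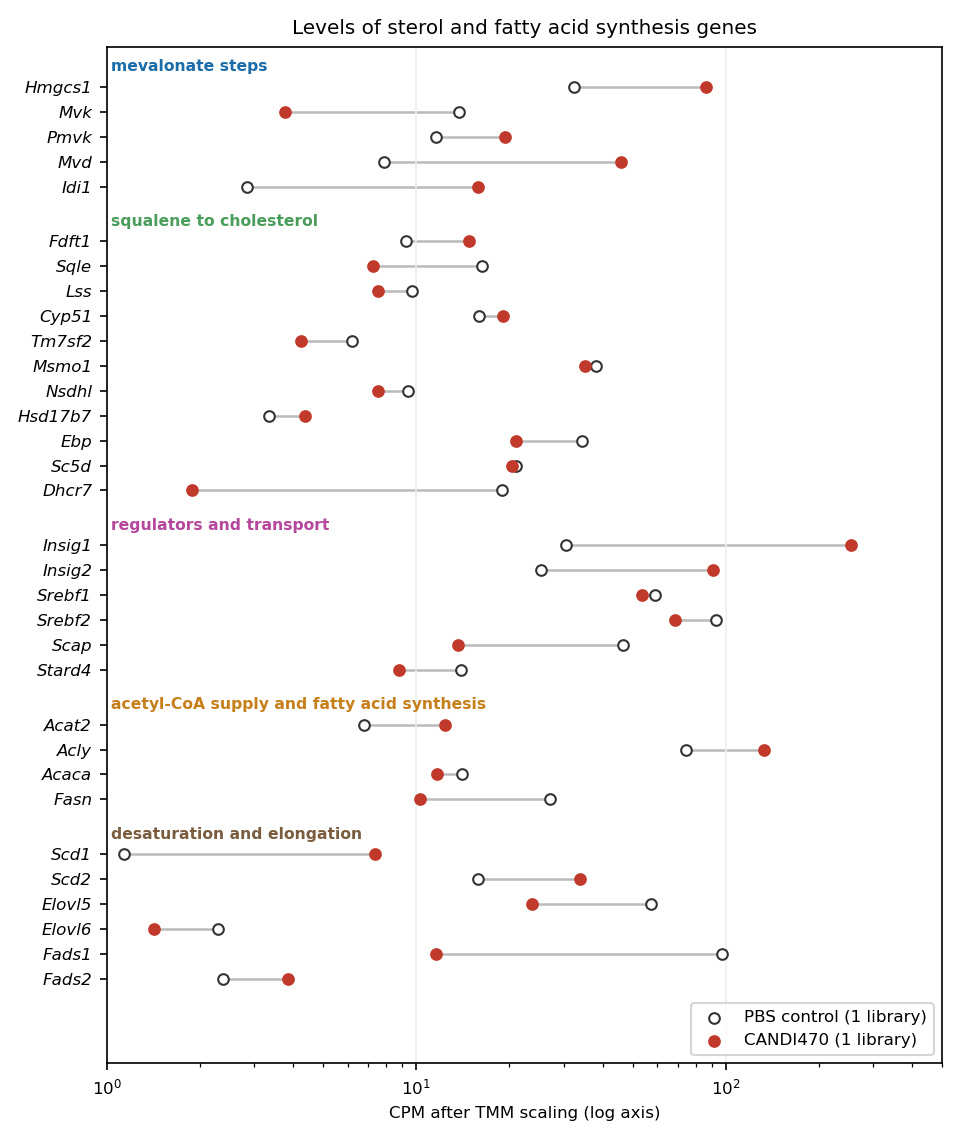
Level of each of the 32 genes in the PBS control library (open circles) and the CANDI470 library (red), as CPM after TMM scaling on a log axis, grouped by role. Insig1 runs from 30.5 to 255 CPM and Fads1 from 97.4 to 11.6 CPM, while most enzymes from squalene to cholesterol have circles close together.

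The regulators held the clearest contrasts, because both INSIG genes were higher while the SREBP genes were within 2-fold under TMM scaling and the escort gene was lower. Insig1 encodes a retention protein of the endoplasmic reticulum that holds SCAP back when sterol is plentiful. Its counts were 8243 with CANDI470 and 1105 with PBS, or 255 and 30.5 CPM. That is 8.35-fold higher, with a 95% exact interval of 7.84 to 8.90 that covers counting error only. Its difference of 3.02 was the largest among the members, and it took Insig1 from percentile 63.9 of all genes in the control to percentile 92.9 in CANDI470, a ranking that needs no scaling between libraries. Insig2, a related retention protein whose gene in mouse liver is not driven by SREBP in the same way, had 2952 and 916 counts, or 91.2 and 25.3 CPM. It was 3.61-fold higher (interval 3.35 to 3.89). The number of Insig1 counts per Insig2 count was 2.79 in CANDI470 (interval 2.68 to 2.91) and 1.21 in the control (1.10 to 1.32), so Insig1 differed more than Insig2.

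Scap, the escort gene, had 443 and 1687 counts, or 13.7 and 46.6 CPM. The CANDI470 level was 0.294 of the control (interval 0.264 to 0.327). Counts of Insig1 per count of Scap were 18.6 in CANDI470 and 0.655 in the control, 28.4 times as many. The genes of the transcription factors themselves were within 2-fold under TMM scaling. Srebf2, whose product mainly drives cholesterol genes, was at 68.5 and 93.1 CPM, a difference of -0.44, and Srebf1, whose product mainly drives fatty acid genes, was at 53.7 and 59.2 CPM, a difference of -0.14. Both were lower under every scaling tried, with Srebf2 at -1.14 and so past 2-fold under library totals, but turned to 0.10 and 0.34 when trends with GC content and length were removed. Srebf1 counts per Srebf2 count were 0.784 and 0.637. Stard4, a cytosolic sterol carrier, was at 8.81 and 13.9 CPM, a difference of -0.60. On GRCm38, the build that the control table's coordinates match, Insig1 lies on chromosome 5 from 28071363 to 28078662, Insig2 on chromosome 1 from 121304353 to 121332589, and Scap on chromosome 9 from 110333288 to 110384950.

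The mevalonate enzymes differed in both directions. Hmgcs1, the HMG-CoA synthase of this route, had 2791 and 1173 counts, or 86.3 and 32.4 CPM, and was 2.66-fold higher (interval 2.49 to 2.85). Mvd, the mevalonate diphosphate decarboxylase, had 1485 and 284 counts, or 45.9 and 7.84 CPM, and was 5.85-fold higher (5.15 to 6.67). In the control annotation only, Mvd overlapped another gene, Gm20388 on the opposite strand. Whether this lowered its control count was not tested. Idi1, the isomerase of the isoprenoid units, had 514 and 103 counts, or 15.9 and 2.84 CPM, and was 5.59-fold higher (4.51 to 6.97). These 3 genes thus stood above the control level, although Hmgcs1 came within 2-fold under library totals, at 0.69. Mvk, the kinase between Hmgcs1 and Mvd in the route, went the other way with 122 and 497 counts, or 3.77 and 13.7 CPM, 0.275 of the control (0.224 to 0.336). Mvd counts per Mvk count were 12.2 in CANDI470 and 0.571 in the control. Pmvk, the next kinase, was at 19.3 and 11.6 CPM, a difference of 0.69. The median of the 5 measured enzymes was 1.39, and their summed level was 171 and 68.4 CPM. Library totals gave a median of 0.69 and a summed level of 134 and 87.5 CPM.

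Fdps had 18 and 24 counts, or 0.556 and 0.663 CPM, with a ratio interval of 0.429 to 1.61. Fdps and Idi1 have processed pseudogene copies in the mouse genome, so reads of these genes may have been left uncounted or placed elsewhere and their levels are uncertain. Idi1-ps1, such a copy of Idi1, had 7 counts with CANDI470, and the related gene Idi2 had 6 and 0.

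Several members are classical SREBP targets, so promoter stretches of 4 higher genes, 1 gene within 2-fold and 2 lower genes are shown. RefSeq promoters were read for 26 of the 33 genes, as 300 bases around each annotated start on GRCm38.p6 (250 before and 50 after). The sequences below are stretches of that upstream part, 5′ to 3′ on the gene's strand. Capitals mark a sterol regulatory element with the letters TCACNCCA and the box CCAAT of the factor NF-Y, each on either strand, so that a CCAAT box on the other strand reads ATTGG. Higher genes are Insig1 (chr5:28071176-28071220, plus strand), Hmgcs1 (chr13:119690101-119690330, plus strand), Mvd (chr8:122443425-122443502, minus strand) and Idi1 (chr13:8885541-8885605, plus strand). Srebf2 (chr15:82147087-82147158, plus strand) was within 2-fold, and Dhcr7 (chr7:143830109-143830189, plus strand, at 1 of its 3 listed starts) and Fasn (chr11:120824582-120824657, minus strand) were lower. That Dhcr7 start was picked because it had the most CCAAT boxes, and for Dhcr7 the box was found only there.
Insig1: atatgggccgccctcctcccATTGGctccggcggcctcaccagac
Hmgcs1: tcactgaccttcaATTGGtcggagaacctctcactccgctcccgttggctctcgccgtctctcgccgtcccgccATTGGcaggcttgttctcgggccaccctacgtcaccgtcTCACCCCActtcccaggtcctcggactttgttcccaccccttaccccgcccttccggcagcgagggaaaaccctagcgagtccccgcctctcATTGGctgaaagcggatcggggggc
Mvd: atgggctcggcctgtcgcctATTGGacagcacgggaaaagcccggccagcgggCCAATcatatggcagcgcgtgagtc
Idi1: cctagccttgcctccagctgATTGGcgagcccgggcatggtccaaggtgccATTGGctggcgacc
Srebf2: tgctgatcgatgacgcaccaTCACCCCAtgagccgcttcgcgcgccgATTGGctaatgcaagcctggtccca
Dhcr7: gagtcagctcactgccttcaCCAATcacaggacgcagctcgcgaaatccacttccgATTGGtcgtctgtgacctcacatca
Fasn: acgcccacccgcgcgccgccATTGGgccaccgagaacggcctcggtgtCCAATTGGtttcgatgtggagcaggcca

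The CCAAT box was found in a promoter of 21 of the 26 genes (80.8%), against 41.1% of all 27025 genes with a promoter in the table. Both strands were searched for every motif, and matches of different motifs may overlap. The GC box GGGCGG was also found in 21 of the 26, against 38.2% of all genes. A gene counted if any of its promoters matched. Counted per promoter, CCAAT was in 22 of the members' 34, against 37.4% of all promoters, and GGGCGG in 25, against 35.7%. These background shares cover genes expressed here or not. Shares over expressed genes alone were not computed, so the members are not set apart from other expressed genes. The letters TCACNCCA were found for 3 of the 26 (11.5%), namely Hmgcs1, Msmo1 and Srebf2, against 4.97% of all genes, and the longer TCACNCCAC for Hmgcs1 alone, against 1.44%. The shorter letters were added after the longer ones had been seen to match only Hmgcs1. The box TCACGTGA, which SREBP can also bind, was found for 0 of the 26, against 1.12% of all genes. Higher and lower members both held CCAAT and GC boxes. The CCAAT box was found in 5 of the 5 higher members with a promoter, in 4 of the 5 lower members and in 12 of the 16 within 2-fold, and the GC box in 5 of 5, 3 of 5 and 13 of 16. In Fasn a pair of CCAAT boxes on opposite strands overlap, and Mvd and the printed start of Dhcr7 each carry a pair on opposite strands. A match is only a run of letters, and binding was not measured.

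The 11 enzymes from squalene to cholesterol were mostly within 2-fold, with a median difference of -0.28, and the members past it were lower. Library totals gave 4 of the 11 lower (median -0.92), against 40.2% of all genes. Upper-quartile scaling gave 3 lower (median -0.61), against 31.7% of all genes. Dhcr7, the reductase that makes cholesterol from its last precursor on one branch, had 61 counts with CANDI470 and 685 with PBS, or 1.89 and 18.9 CPM. The CANDI470 level was 0.0997 of the control (interval 0.0754 to 0.130), and Dhcr7 went from percentile 52.0 of all genes to percentile 17.2. Hmgcs1 counts per Dhcr7 count were 45.8 in CANDI470 and 1.71 in the control, a ratio 26.7 times as high. Sqle, the squalene epoxidase and a rate-limiting enzyme, had 235 and 589 counts, or 7.26 and 16.3 CPM, a difference of -1.06 that came within 2-fold with DESeq2 size factors and with a pseudocount of 5 CPM. Dhcr7 lies on chromosome 7 from 143823145 to 143848410.

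The other 9 enzymes of this stretch lay between -0.68 and 0.62. Fdft1, which makes squalene, was at 14.8 and 9.28 CPM (0.62), and the lanosterol demethylase Cyp51 at 19.0 and 15.96 CPM (0.24). Hsd17b7, a sterol ketone reductase, was at 4.36 and 3.34 CPM (0.30). The directions of these 3 turned under library totals, to -0.04, -0.43 and -0.26. Lss, the lanosterol synthase, was at 7.51 and 9.72 CPM (-0.33). Methylsterol monooxygenase Msmo1, with 1138 and 1381 counts the most counted enzyme of the stretch, was at -0.11, and Nsdhl, which acts with it in removing methyl groups, was at -0.28. Tm7sf2, a sterol reductase, was at -0.46. Its gene models were 4403 bases long for CANDI470 and 5593 for the control, and per base of model it was at -0.15. The sterol isomerase Ebp, with 681 and 1243 counts, was at -0.68. Under library totals Tm7sf2 and Ebp came past 2-fold lower, at -1.05 and -1.36. The sterol desaturase Sc5d was at 20.4 and 20.9 CPM (-0.04), and turned to 0.04 with DESeq2 size factors. The summed level of the 11 enzymes was 143 against 182 CPM, while that of the mevalonate enzymes was 2.50 times as high in CANDI470. Library totals gave 112 against 233 CPM for the 11 enzymes and 134 against 87.5 CPM for the mevalonate enzymes. Fdft1 overlaps Ctsb, a highly transcribed macrophage gene, and Cyp51 overlaps Akap9, both on the opposite strand, while Tm7sf2 overlaps Vps51 on its own strand. The strand setting of the counting was not given in the sources used here.

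**Figure D2:**
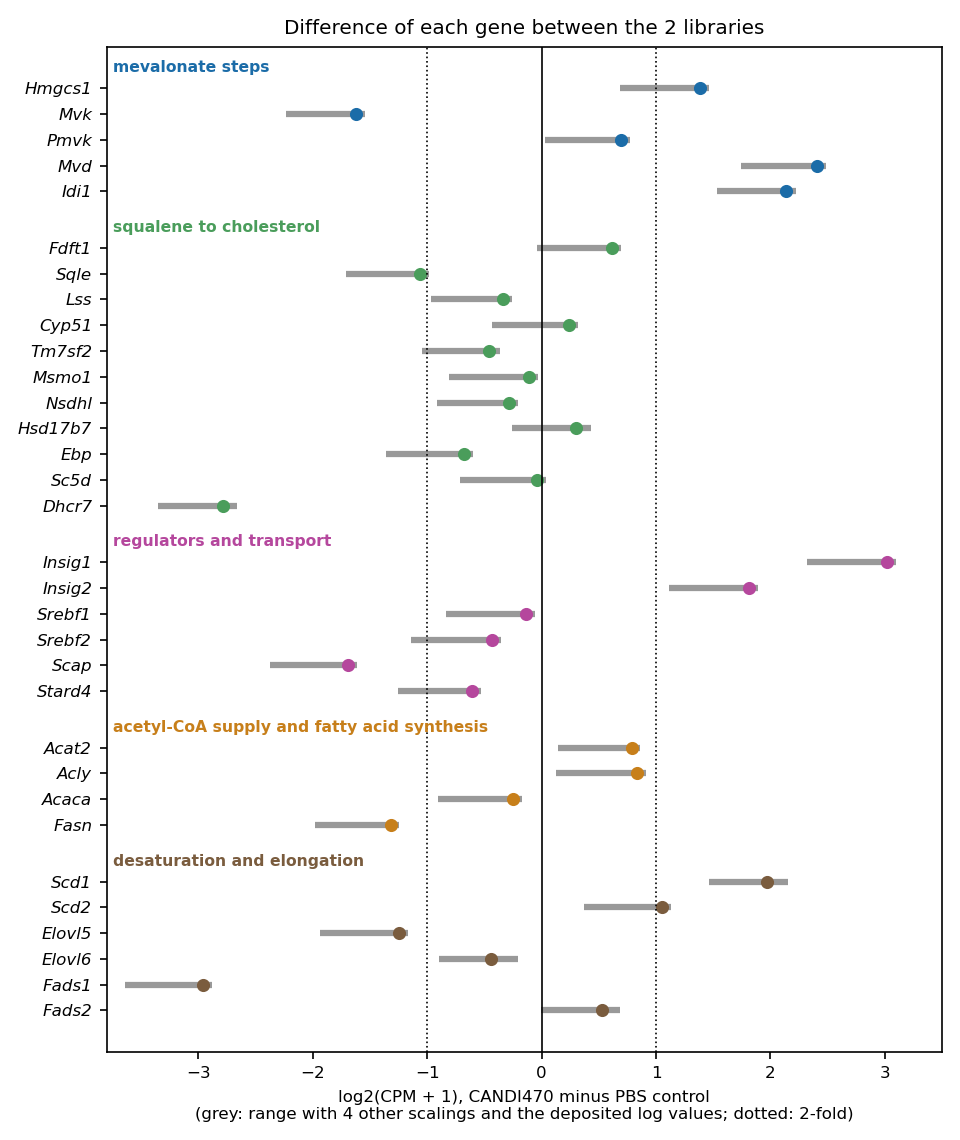
Difference of each gene, in log2(CPM + 1) between the CANDI470 and PBS libraries (right of 0 is higher with CANDI470), coloured by role. Points are TMM-scaled values, grey bars span the values under DESeq2, library-total, upper-quartile and median-centred scaling and the deposited log values, and dotted lines mark 2-fold. Insig1, Mvd, Idi1, Insig2 and Scd1 stay right of 1 over the whole bar, and Fads1, Dhcr7, Scap, Mvk, Fasn and Elovl5 stay left of -1.

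Fatty acid synthesis genes differed by step. Acly, which splits citrate into acetyl-CoA in the cytosol, had 4311 and 2691 counts, or 133 and 74.3 CPM, a difference of 0.83. Acat2, which joins acetyl-CoA units at the start of the mevalonate route, was at 12.4 and 6.77 CPM (0.79). Its near-identical copy Acat3 had 88 counts with CANDI470 and 1 with PBS, so the level of Acat2 is uncertain. Acaca, the carboxylase that makes malonyl-CoA, was at 11.7 and 14.0 CPM (-0.25). Fasn, the fatty acid synthase, had 332 and 982 counts, or 10.3 and 27.1 CPM, 0.378 of the control (interval 0.333 to 0.429). Acly counts per Fasn count were 13.0 in CANDI470 and 2.74 in the control, so the supply enzyme and the synthase differed in opposite directions. Fasn lies on chromosome 11 from 120805846 to 120824547.

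Of the 6 desaturases and elongases, 2 were higher and 2 lower (33.3% each), against 25.1% and 23.5% of all genes. With library totals or upper-quartile scaling, a pseudocount of 5 CPM, no minimum, or GC content and length trends removed, 1 was higher. With the 2 genes whose model was the same in both tables, 0 were. Scd1 and Scd2, stearoyl-CoA desaturases that make monounsaturated fatty acids, were higher. Scd1 had 238 and 41 counts, or 7.36 and 1.13 CPM, a difference of 1.97 (ratio interval 4.65 to 9.29). Scd2 had 1097 and 575 counts, or 33.9 and 15.9 CPM, and was 2.14-fold higher (1.93 to 2.37), within 2-fold under 5 of the alternatives. Scd2 was the more counted gene in both libraries, with 0.217 Scd1 counts per Scd2 count in CANDI470 and 0.0713 in the control. Scd3 and Scd4 had 0 counts in CANDI470, and 0 and 2 in the control.

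Fads1 and Elovl5, a desaturase and an elongase of polyunsaturated fatty acids, were lower. Fads1 had 376 counts with CANDI470 and 3529 with PBS, or 11.6 and 97.4 CPM, 0.119 of the control (interval 0.107 to 0.133). At -2.96 this was the largest negative difference of the members, and Fads1 went from percentile 88.2 of all genes to percentile 44.4. The treated library was counted on a Fads1 model of 4812 bases and the control on one of 3456, and per base of model the difference was -3.37. Elovl5 had 764 and 2083 counts, or 23.6 and 57.5 CPM, 0.411 of the control (0.377 to 0.446). Fads2, the desaturase that acts before Fads1 on these fatty acids and its neighbour on chromosome 19, had 125 and 86 counts, a difference of 0.53. The Fads2 models were 3295 and 1508 bases long, in the same order, and its direction turned to -0.27 per base of model and to -0.01 under library totals. Elovl6, which elongates saturated fatty acids, was near the minimum with 46 and 83 counts (-0.44). Fads1 lies on chromosome 19 from 10182888 to 10196870, and Scd1 on chromosome 19 from 44394451 to 44407709.

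Per kilobase of gene model, the order of the members also differed between the libraries. In the control, Fads1 was the most abundant member at 28.2 CPM per kilobase, followed by Elovl5 at 16.3, Ebp at 14.9, Acly at 14.1 and Srebf2 at 13.0. In CANDI470 it was Insig1 at 82.4 CPM per kilobase, followed by Insig2 at 26.3, Acly at 25.2, Mvd at 24.7 and Hmgcs1 at 18.8. Acly was thus the member in the top 5 of both. Of the 10 highest members per kilobase in each library, 9 were the same, so the order differed more than the set. The regulators and Stard4 took 46.5% of the members' counts in CANDI470 and 32.8% in the control, the mevalonate enzymes 16.2% and 8.36%, the enzymes from squalene to cholesterol 13.6% and 22.3%, and the desaturases and elongases 7.76% and 21.6%. Insig1 alone weighed heavily here: the summed level of all members was 1054 against 818 CPM, and 800 against 788 CPM without Insig1. Both directions turned under library totals, with 824 against 1047 CPM, and 625 against 1008 CPM without Insig1.

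Other genes of the same pathways were listed by function. Of 12 measured further genes of sterol synthesis, its branches and sterol handling, 3 were higher past 2-fold and 2 were lower (median 0.15). Library totals gave 2 higher and 4 lower (median -0.47). Counts in this and the next lists stand against 25.1% higher and 23.5% lower over all genes, or 16.2% and 40.2% under library totals. Pggt1b, a subunit of a prenyltransferase that uses products of the route, was at 98.6 and 9.28 CPM (3.28). Its gene models were 11749 and 2736 bases long in the respective tables, and per base of model its difference was 1.25, no longer past 4-fold. Of 11 genes of SREBP processing and sterol-regulated protein degradation, 2 were higher and 0 lower (median 0.33), with none past 4-fold. Library totals turned this to 0 higher and 1 lower (median -0.37).

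Of 20 measured further genes of fatty acid activation and glycerolipid synthesis, 4 were higher and 4 lower (median 0.12), and with library totals 4 were higher and 6 lower (median -0.57). Acsl1 and Acsl4, which activate fatty acids to their CoA esters, were at 1587 against 29.8 CPM (5.69) and 250 against 54.4 CPM (2.18). Dgat2, which makes triacylglycerol, was at 16.5 against 1.05 CPM (3.09). Lpin1, a phosphatidate phosphatase that supplies diacylglycerol, was at 1.58 against 21.5 CPM (-3.13), and Mid1ip1, an activator of acetyl-CoA carboxylase, at 7.11 against 67.6 CPM (-3.08).

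**Figure D3:**
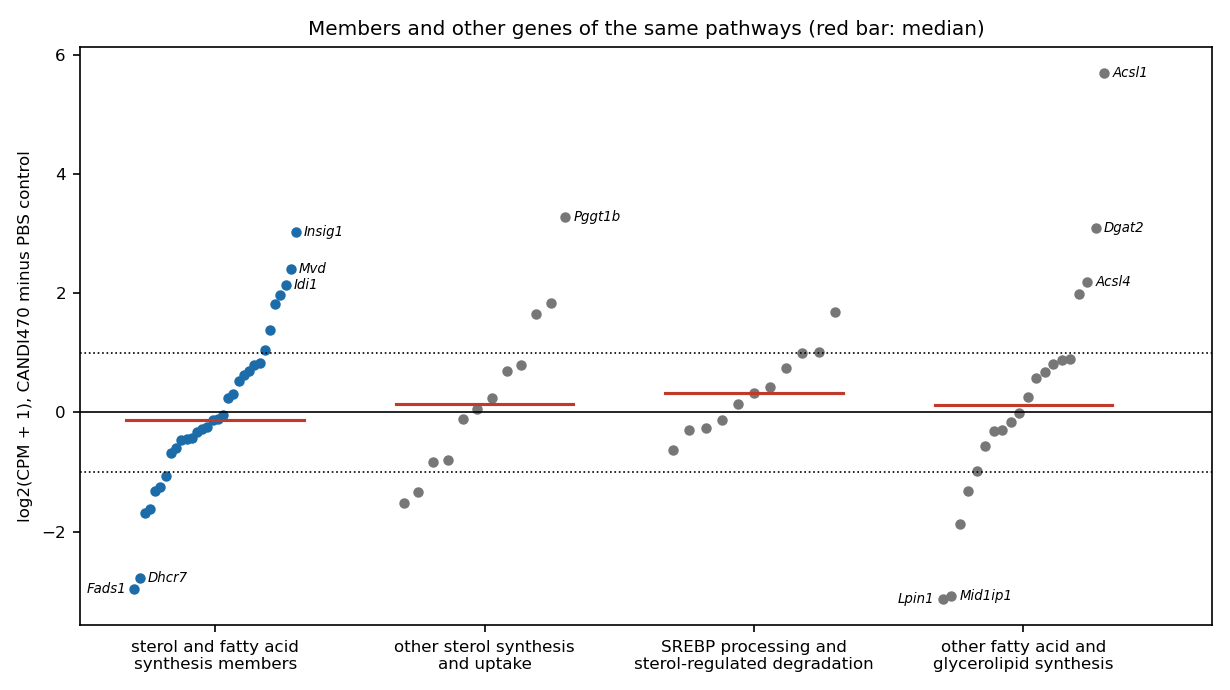
Differences, in log2(CPM + 1) between the CANDI470 and PBS libraries (above 0 is higher with CANDI470), for the 32 members (blue) and for 3 lists of other genes of the same pathways (grey), each gene a point in ascending order. Red bars are list medians, dotted lines mark 2-fold, and genes past 4-fold are named, with Acsl1 highest at 5.69.

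Several features of the libraries moved with these differences. The transcripts of the 7 higher members had a median GC content of 47.1% and those of the 7 lower members 52.8%. Over the 32 members, which share both libraries, the Spearman correlation of difference and GC content was -0.26, the same as over all genes. After the trends with GC content and transcript length were taken out, Mvk was at -0.88, Hmgcs1 at 0.88 and Scd2 at 0.93, each within 2-fold, while Pmvk at 1.27 and Acly at 1.05 came past 2-fold higher and Stard4 and Elovl6, both at -1.04, past 2-fold lower. Insig1 was at 3.16, Mvd at 3.14 and Dhcr7 at -2.52. All 8 macrophage markers were measured, and 5 of them were within 2-fold (median -0.25). Their levels summed to 12150 and 20180 CPM, mostly from Lyz2 at 7274 and 13837 CPM, while Csf1r was at -2.24, Fcgr1 at 2.55 and Mertk at 2.52. Neutrophil markers, 6 of 8 measured, summed to 671 and 6.99 CPM, with Ly6g at 0 in the control. In CANDI470 most of that sum was Lcn2, at 388 CPM against 1.57 CPM in the control. The 6 mast cell and basophil markers summed to 41.8 and 0.497 CPM, with 3 of them at 0 in the control, and dendritic cell markers, 3 of 4 measured, to 465 and 0.442 CPM. In CANDI470 most of the dendritic cell sum was Ccr7, at 433 CPM against 0.0552 CPM in the control, and Flt3 was below the minimum. Whether such cells were present, and their part in the members' differences, was not tested. Of 5 adipocyte markers, Adipoq and Cidec were at 0 in both libraries, Plin1 and Lep were at 0 in CANDI470, and Fabp4, which macrophages also express, was at 171 and 53.8 CPM. Fibroblast markers, 3 of 4 measured, summed to 4.82 and 0.0276 CPM. Markers of T and NK cells, B cells and erythroid cells summed to at most 1.92 CPM per list.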

How the data were processed

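Raw counts per gene were deposited by the authors, with no normalization per the file headers. The authors also deposited log2 values of scaled counts, and their scaling method, like the aligner, counter and annotation, is not given in the sources used here. Build mm10 stands in the submitters' processing notes. The 3 other per-sample columns in the control table matched no sample here and were not used, so the minimum of 1 CPM was read in 2 libraries. Tables were joined on 51084 shared gene identifiers, holding 99.4% of the CANDI470 and 99.5% of the control counts. TMM factors from edgeR 4.0.16 (R 4.3.3) were 0.782 and 1.28. They were computed on the 12827 genes past the minimum, a choice made after factors from all shared identifiers (0.810 and 1.23) had been seen. A pseudocount of 1 CPM was added before taking log2. No test was possible with 1 sample in each group. Ratio intervals are 95% exact conditional (Clopper-Pearson) intervals from scipy 1.17.1. They cover counting error only, since PCR copies of a molecule could not be told from separate molecules. Control table coordinates matched GENCODE M21 (GRCm38) for 98.3% of identifiers and CANDI470 table coordinates for 2.83%, so the build of the latter is not settled here and only control table coordinates are printed. Every member is named, and of the other pathway genes those past 4-fold, while some listed genes are not reported here and were left out of the list's counts. Promoter sequences are from RefSeq (GRCm38.p6). The procedure was also run on counts simulated from the control proportions, with known changes in few genes and no difference in gene models. The real libraries differed in a far larger share of genes, so that run cannot check the scaling between them. Members, lists, motifs and alternatives were chosen with earlier results of these data known.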

Additional observations from a re-analysis of the deposited data

How the results depend on the processing

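Of 13 alternatives, none turned the direction of a member past 2-fold, and 10 of these 14 members stayed past 2-fold under each alternative that gave a value. The other pseudocounts and the restriction to equal gene models could not have turned a direction. Library totals gave 5 members higher and 11 lower with a median of -0.82, and upper-quartile scaling gave a median of -0.49. The medians of all genes under these scalings were -0.69 and -0.39, and relative to them 7 members were higher and 7 lower under both. Under library totals 28.8% of all genes past 2-fold were higher, against 51.7% under TMM and 38.7% under upper-quartile scaling. Without genes whose length or number of overlapping genes differed between the tables, 25 members were left. Of them 4 were higher and 6 lower, against 25.2% and 23.1% of all genes left. The higher members Mvd, Scd1 and Scd2 and the lower member Fads1 dropped out. TMM factors from all shared identifiers, with no minimum, gave 6 higher and 7 lower of 33 members, with Scd2 within 2-fold. The shares of all genes with a count were then 13.2% and 14.0%. Of 18 members within 2-fold, 7 changed direction under an alternative, and these directions are not firm. Of the values of single members under the alternatives, 302 stayed inside the counting interval and 104 moved out of it. The 302 include the values of the 25 members with equal gene models, which that restriction left unchanged by construction. Depth limits Fdps, Elovl6, Scd1, Fads2 and Dhcr7, which had under 100 counts in a library. No paired analysis was possible because each group had 1 library.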
